A study of Homo sapiens with 6 samples.

Results

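Cancer-testis antigens are proteins normally made in germ cells of the testis that many tumours make again. Most are encoded by families of near-identical copies on the X chromosome, which lie silent in other tissues, largely through methylation of their promoters. Rows of the array table were taken by symbol: those beginning with MAGEA, MAGEB, MAGEC, XAGE, PAGE, SSX followed by a digit, CT45A, CT47A, CSAG or CTAG, and PRAME and DDX43. This gave 75 of 34602 gene rows. The related GAGE rows, 20 in number, were left out. The rule also takes in 5 rows that share only letters with these families, namely CTAGE1, CTAGE4, CTAGE5, CTAGE6 and SSX2IP. SSX2IP encodes a partner of an SSX protein that works at centrosomes.

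The cells were U2OS, a line from a human osteosarcoma, grown untreated in medium with serum. In 3 clones MBTD1 had been knocked out by CRISPR/Cas9, and 3 further clones were controls. Total RNA of each clone was put on 1 Illumina bead array. MBTD1 is a reader of methylated histones in the TIP60 acetyltransferase complex. The titles write "control KO" for the control clones while the design text has wild-type cells, and how they were derived is not stated. Nor is it stated that cultures or arrays were handled separately. The p-values therefore cover only the spread among these 6 arrays.

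The arrays were close in brightness, with 20 to 22 beads behind a typical value, but the groups did not overlap. Median intensities were 86.5 to 87.2 in knockout clones and 84.7 to 85.7 in control clones. Mean background was 83.2 to 84.2 in knockout clones and 81.7 to 82.6 in control clones. MBTD1 measured 5.17, 4.99 and 4.62 in knockout clones, against 5.06, 5.05 and 5.05 in control clones (log2 scale; difference -0.13, limma adjusted p = 0.676), and where its probes lie relative to the edit is not given, so this checks nothing about the edit. Of 12 tested osteosarcoma and mesenchymal markers of 14 listed, 0 passed the test, against 1.57% of all tested genes. On at least 1 array, 13 of the 14 were above background. Those nearest to passing were SPP1 at -1.22 (limma adjusted p = 0.0521), VIM at -0.71 (0.0564) and CDH2 at 0.51 (0.0597), named after their values were seen. Of 24 germ cell markers on the array, 4 were above background on any array, with DDX4, DAZL and the protamines PRM1 and PRM2 on none. DMC1, in 1 knockout clone alone, was among the 4 although its level was high on every array. It measured 8.30, 8.21 and 8.19 in knockout clones, against 8.20, 8.28 and 8.32 in control clones. The summed linear level of the list, with DMC1 its largest term, was 743 to 766 in knockout clones and 731 to 760 in control clones. NANOS3, the 1 germ cell marker tested, measured 5.21, 5.63 and 5.19 in knockout clones, against 4.85, 4.66 and 4.71 in control clones, without overlap (difference 0.60, limma adjusted p = 0.0710), and its part in the members' values was not tested. A short-gene score, the mean log2 level of tested genes spanning under 5 kb minus that of longer ones, was 0.426, 0.447 and 0.422 in knockout clones, against 0.335, 0.0573 and 0.230 in control clones 1 to 3. Control 1 lay nearest to the knockout clones in this score.

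A row counted as above background on an array at a detection p under 0.05. By that rule 39 of the 75 rows were above background on no array, 36 on at least 1 and 21 on all 6. The rule does not sort by level alone. PRAME missed it in knockout 1 at a log2 level of 8.15, with a detection p of 0.0765. Rows above background on at least 3 arrays were tested with all other genes, which took in 28 of the 75. None of these 28 passed an adjusted p of 0.05 (limma with Benjamini-Hochberg adjustment over 13145 genes), against 1.57% of all tested genes. That background is 207 genes, 158 higher (1.2%) and 49 lower (0.373%) in knockout clones. After scaling to a common median it became 553 higher and 32 lower. At an unadjusted p under 0.05 in limma, 9 of the 28 rows were higher and 2 lower, against 10.1% and 10.3% of all tested genes. The 9 are XAGE1, XAGE1A, XAGE1B, XAGE1C, PAGE2, PAGE2B, CSAG2, CSAG3A and CSAG3B, close copies that do not stand for 9 genes. The log2 difference, knockout minus control, was positive in 14 of the 28 rows, against 46.2% of all tested genes, and its median was 0.02 over the 28 rows and -0.02 over all. The values are of whole clones, in which fewer expressing cells and less RNA per cell cannot be told apart.

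The groups did not overlap in 12 of the 28 rows. In 8 rows every knockout clone lay above every control clone, against 12.2% of all tested genes, and in 4 every knockout clone lay below, against 13.7%. The 8 rows do not stand for 8 genes. They are XAGE1, XAGE1A, XAGE1B, XAGE1C, PAGE2, CSAG2, CSAG3B and CT45A5, and RefSeq now gives XAGE1C the name XAGE1B and CSAG3B the name CSAG2. Near-identical copies can share signal on an array, so values of single copies are uncertain.

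**Figure D1:**
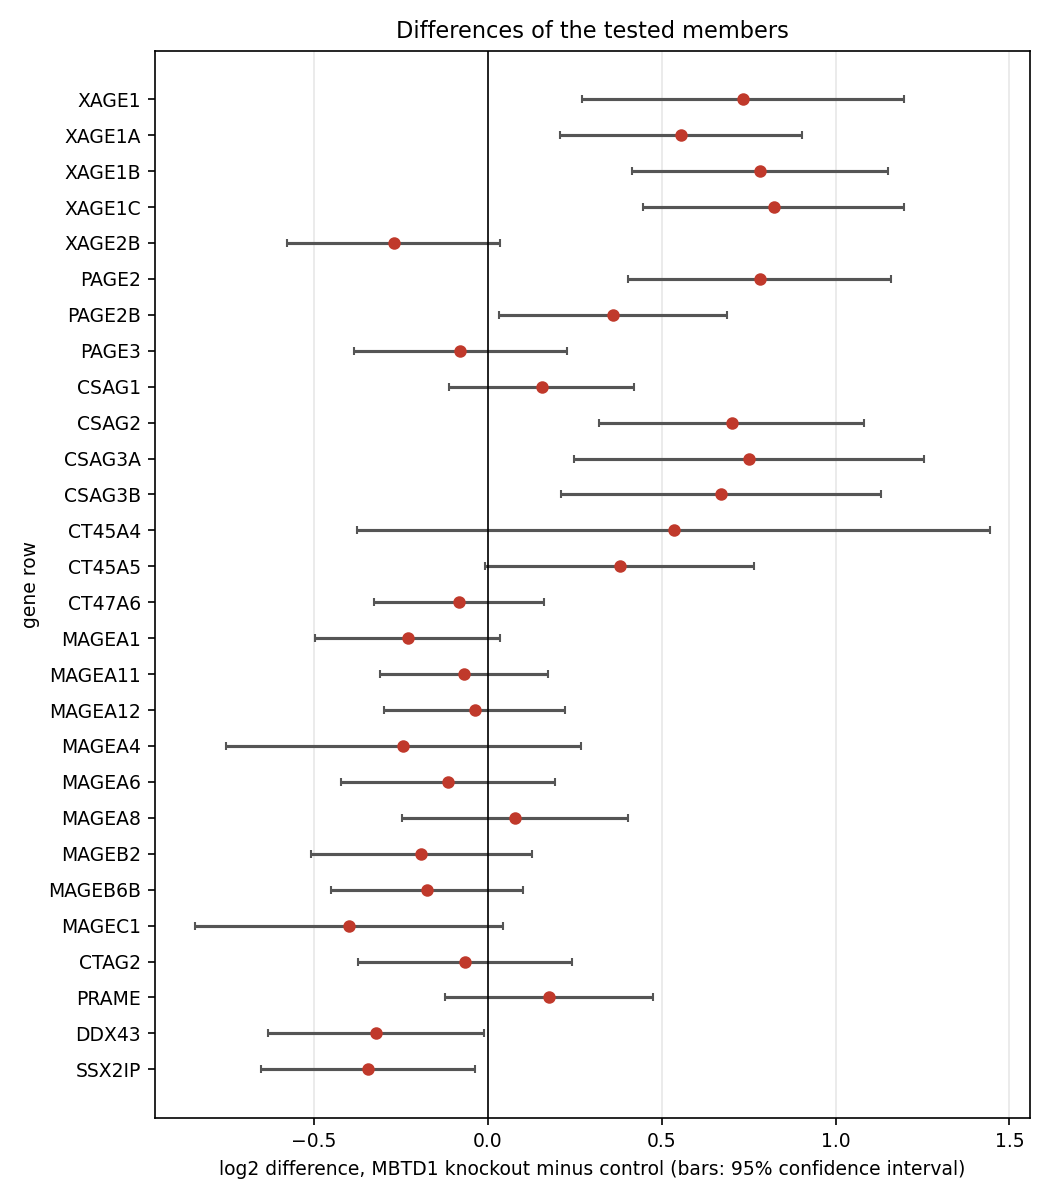
Log2 difference, MBTD1 knockout minus control, of the 28 tested rows, with 95% confidence intervals from limma (n = 3 clones each). The XAGE1, PAGE2 and CSAG2 and CSAG3 rows lie to the right of 0, while MAGE rows other than MAGEA8 lie to the left, and the interval of every MAGE row includes 0.

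The 4 tested XAGE1 rows measured 1.47-fold to 1.77-fold higher in knockout clones without passing. XAGE and PAGE proteins are small, acidic members of the same superfamily as GAGE, and their function in tumours is not settled. XAGE1C measured 9.09, 8.91 and 9.13 in knockout clones, against 8.53, 7.90 and 8.24 in control clones. The knockout clones lay above all controls, with a gap of 0.39 to the nearest one. The log2 difference was 0.82 (standard error 0.16), or 1.77-fold (95% confidence interval 0.45 to 1.20 on the log2 scale; limma adjusted p = 0.0511), just outside the threshold. XAGE1B measured 9.99, 9.98 and 9.98 in knockout clones, against 9.54, 8.89 and 9.18 in control clones, again without overlap (difference 0.78, limma adjusted p = 0.0537). XAGE1A measured 11.33, 11.41 and 11.31 in knockout clones, against 11.08, 10.50 and 10.80 in control clones (difference 0.55, limma adjusted p = 0.0946). The row named XAGE1 measured 9.59, 9.50 and 9.66 in knockout clones, against 9.33, 8.45 and 8.77 in control clones (difference 0.73, limma adjusted p = 0.0961). In all 4 rows the knockout clones lay close together and the controls spread, with control 1 above control 2 by 0.57 to 0.88. The other XAGE rows did not follow, among them XAGE1D and XAGE1E, which RefSeq now names XAGE1B, like XAGE1C. XAGE2B, above background in 1 of 3 knockout clones and 3 of 3 control clones, measured 4.51, 4.45 and 4.30 in knockout clones, against 4.88, 4.70 and 4.49 in control clones (difference -0.27, limma adjusted p = 0.299). XAGE1E was above background on 1 array of each group, and XAGE1D, XAGE2, XAGE3, XAGE-4 and XAGE5 on none. XAGE1D and XAGE1E each differed by 0.02 and were not tested, so rows now named XAGE1B were not alike.

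PAGE2, a further member of that superfamily, differed about as much. It measured 10.92, 10.86 and 10.91 in knockout clones, against 10.38, 9.74 and 10.24 in control clones. Every knockout clone lay above every control, by at least 0.48, and the difference of 0.78 (standard error 0.17) was 1.72-fold (95% confidence interval 0.40 to 1.16; limma adjusted p = 0.0564). PAGE2B, its close copy, measured 11.50, 11.19 and 11.31 in knockout clones, against 11.20, 10.80 and 10.92 in control clones. Here knockout 2 lay below control 1, and the difference was 0.36 (limma adjusted p = 0.208). PAGE1 was above background in knockout 1 alone: it measured 5.39, 4.14 and 4.14 in knockout clones, against 4.32, 4.25 and 4.15 in control clones. With each control counted at the higher of its own signal and the lowest signal above background, it was at least 1.20-fold higher in the mean of knockout clones, a mean that 1 of 3 clones carries, and it was not tested. PAGE3 differed by -0.08 (limma adjusted p = 0.786), and PAGE4 and PAGE5 were above background on no array.

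The CSAG genes, named for chondrosarcoma, were placed likewise. CSAG2 measured 6.14, 5.55 and 5.85 in knockout clones, against 5.31, 4.98 and 5.13 in control clones. The groups did not overlap, and the difference was 0.70 (standard error 0.17), or 1.63-fold (limma adjusted p = 0.0685). CSAG3A measured 7.08, 6.38 and 7.16 in knockout clones, against 6.42, 5.91 and 6.04 in control clones, with knockout 2 just under control 1 (difference 0.75, limma adjusted p = 0.110). CSAG3B measured 6.84, 6.16 and 6.71 in knockout clones, against 6.11, 5.60 and 5.98 in control clones (difference 0.67, limma adjusted p = 0.118). Knockout 2 was the lowest knockout clone in all 3 rows, and control 1 lay above control 2 by 0.34 to 0.51. CSAG1 differed by 0.15 (limma adjusted p = 0.507), and the row named CSAG3, now the same gene as CSAG3A, was above background on no array.

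**Figure D2:**
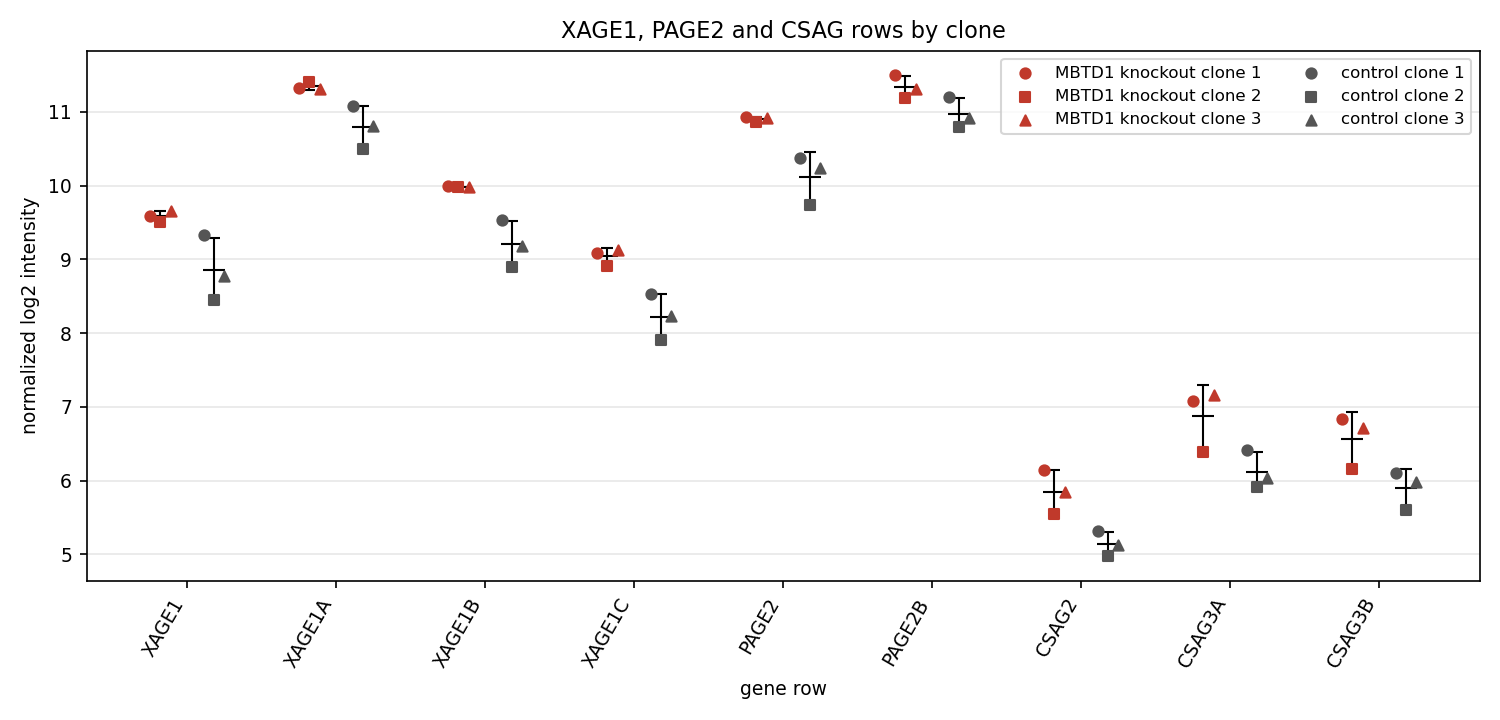
Normalized log2 intensity of XAGE1, XAGE1A, XAGE1B, XAGE1C, PAGE2, PAGE2B, CSAG2, CSAG3A and CSAG3B in each clone, MBTD1 knockout (red) left of control (grey), with mean and SD (n = 3 each) in black. Knockout clones lie above all controls except in PAGE2B and CSAG3A, and control 1 is the highest control in each of these rows.

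Whether these rows passed depended on the arrays and the scaling used. Leaving out control 1 made PAGE2 and all 4 tested XAGE1 rows pass, with limma adjusted p between 0.0127 for XAGE1B and 0.0398 for XAGE1A. Scaling to a common median made these 5 and CSAG2 pass, with an adjusted p of 0.0106 for PAGE2 and 0.0354 for CSAG2. With the short-gene score added to the model, a choice made after the data had been seen, the difference was 0.26 for PAGE2, 0.35 for XAGE1C, 0.28 for XAGE1B, 0.09 for XAGE1A, 0.07 for XAGE1 and 0.47 for CSAG2, with an adjusted p of at least 0.997 each. The score was higher in every knockout clone than in any control clone, and tested members enter it. Score and knockout therefore cannot be told apart in these arrays, and the part of gene length in the result was not tested further. The XAGE1A, XAGE1B and PAGE2 genes span 5005, 4992 and 3825 bases, and 13 of the 26 tested members with a known span are under 5 kb. Over all tested genes with a known span, 1318 were under 5 kb and 8990 were longer. Their median differences were 0.09 and -0.06. Control 1 minus control 2 had a median of 0.174 across the 28 tested members and -0.0203 across all tested genes. PAGE2, XAGE1A, XAGE1B and XAGE1C kept a positive difference in all 19 alternatives, and the row named XAGE1 in the 18 that tested it. PAGE2B, CSAG2, CSAG3A and CSAG3B also kept a positive difference in all 19. DDX43, SSX2IP, MAGEC1 and MAGEA1 kept a negative difference in all 19, while CT45A4 kept its sign in 17 of 19. The alternatives reuse the same arrays, in whole or in part, so a kept sign does not set PAGE2 and the XAGE1 rows apart.

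Since many of these genes are known to be silenced by promoter methylation, promoter sequences are shown here for PAGE2 and XAGE1A, whose rows lay above all controls, for PAGE2B and for CSAG3, the current name of CSAG3A, whose groups overlapped at a higher mean in knockout clones, and for 2 others: MAGEA6, which was above background but close between groups, and SSX1, which was above background on no array. Each is the 250 bases before the RefSeq gene start, 5′ to 3′ on the gene's strand, from GRCh38.p14, with CG dinucleotides, the bases where methylation falls, in capitals. PAGE2 lies at chrX:55088768-55089017, PAGE2B at chrX:55074780-55075029, XAGE1A at chrX:52495627-52495876, CSAG3 at chrX:152753671-152753920 and SSX1 at chrX:48255142-48255391, all on the plus strand, and MAGEA6 at chrX:152769690-152769939 on the minus strand.
PAGE2: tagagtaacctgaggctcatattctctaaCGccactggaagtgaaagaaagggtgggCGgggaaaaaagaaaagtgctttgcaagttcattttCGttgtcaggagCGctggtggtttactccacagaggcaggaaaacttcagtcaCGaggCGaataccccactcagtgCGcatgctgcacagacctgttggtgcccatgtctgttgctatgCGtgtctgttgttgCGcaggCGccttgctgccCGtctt
PAGE2B: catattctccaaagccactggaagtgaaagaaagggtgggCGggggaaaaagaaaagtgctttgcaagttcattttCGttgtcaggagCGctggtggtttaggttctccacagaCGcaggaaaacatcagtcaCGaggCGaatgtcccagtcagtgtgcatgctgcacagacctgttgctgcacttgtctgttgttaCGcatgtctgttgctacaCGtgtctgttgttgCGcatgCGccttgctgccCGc
XAGE1A: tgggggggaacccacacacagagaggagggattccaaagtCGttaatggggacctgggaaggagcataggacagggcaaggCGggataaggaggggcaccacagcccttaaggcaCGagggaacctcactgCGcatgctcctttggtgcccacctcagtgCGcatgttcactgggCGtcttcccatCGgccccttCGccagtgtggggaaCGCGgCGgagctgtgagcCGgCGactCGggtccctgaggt
CSAG3: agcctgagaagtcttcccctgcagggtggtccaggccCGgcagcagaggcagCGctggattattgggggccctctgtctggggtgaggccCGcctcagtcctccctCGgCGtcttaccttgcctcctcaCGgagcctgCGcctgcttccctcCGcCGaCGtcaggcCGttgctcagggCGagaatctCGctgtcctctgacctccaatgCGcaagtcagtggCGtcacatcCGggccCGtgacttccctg
MAGEA6: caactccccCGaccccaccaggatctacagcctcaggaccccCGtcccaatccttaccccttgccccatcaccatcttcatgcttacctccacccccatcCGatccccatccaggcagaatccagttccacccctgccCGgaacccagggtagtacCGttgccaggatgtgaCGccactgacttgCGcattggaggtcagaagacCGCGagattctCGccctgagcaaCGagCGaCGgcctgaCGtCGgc
SSX1: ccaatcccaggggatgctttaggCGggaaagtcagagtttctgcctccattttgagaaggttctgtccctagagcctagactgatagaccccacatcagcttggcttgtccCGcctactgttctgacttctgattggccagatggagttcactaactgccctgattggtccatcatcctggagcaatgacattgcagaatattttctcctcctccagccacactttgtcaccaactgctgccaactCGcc
PAGE2 and PAGE2B matched at 217 of 270 alignment columns, gaps included, or 80.4%, against 50.5% for PAGE2 and XAGE1A aligned the same way. The XAGE1A and XAGE1B windows, on opposite strands of the X chromosome, were identical over 250 bases, and so were those of MAGEA3 and MAGEA6. The windows hold 11 CG dinucleotides in PAGE2 and in PAGE2B, 14 in XAGE1A, 17 in CSAG3, 15 in MAGEA6 and 3 in SSX1. The GC box GGGCGG, searched on both strands, occurs in PAGE2 and PAGE2B but in none of the other 4 windows shown, and in 42.6% of all 35116 promoters. The ETS core CCGGAA occurs in MAGEA6 and none of the other 5, and in 14.5% of all. The TATA box TATAAA occurs in 0 member windows and in 10.7% of all.

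Promoter windows were found for 49 member genes. None was found for MAGEA1, CSAG2 or CT45A4, whose rows were above background on all 6 arrays. XAGE1A and XAGE1B, with identical windows, count as separate genes. Where rows share a current gene, as CSAG3 and CSAG3A do, the row above background on the most arrays was used. The number of CG dinucleotides had a median of 14 (range 4 to 26) in the 15 genes above background on all 6 arrays, 9.5 (4 to 16) in the 8 genes above background on 1 to 5 arrays, and 7 (1 to 16) in the 26 above background on none. The median over all promoters was 11. The SSX2IP window, of a gene that is no cancer-testis antigen, holds the highest number. Methylation itself was not measured, and family copies share sequence, so these counts describe the windows only.

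**Figure D3:**
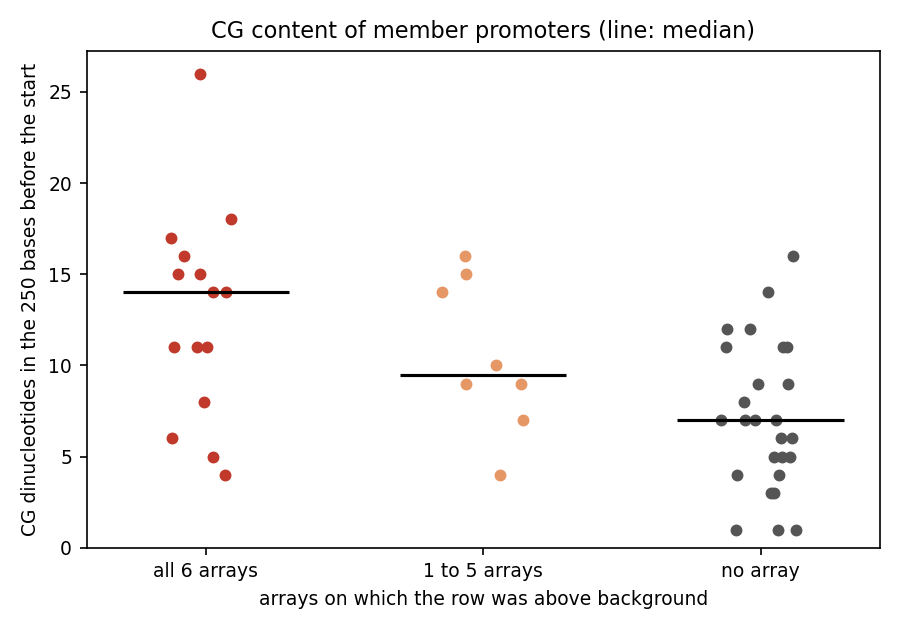
CG dinucleotides in the 250 bases before the RefSeq start of 49 member genes, by the number of arrays on which the gene's most often detected row was above background. Lines are medians, 14, 9.5 and 7 from left to right, and the ranges overlap.

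CT45A rows stood out in 1 knockout clone. CT45 proteins are nuclear antigens from a cluster of near-identical genes. CT45A4 measured 7.36, 8.87 and 7.09 in knockout clones, against 7.50, 6.98 and 7.23 in control clones. Knockout 2 was 3.09-fold above the control mean, while knockout clones 1 and 3 lay among the controls, so the group difference of 0.53 did not pass (limma adjusted p = 0.503) and was -0.01 without knockout 2. CT45A5 measured 5.31, 5.88 and 5.26 in knockout clones, against 5.15, 5.07 and 5.08 in control clones (difference 0.38, limma adjusted p = 0.253). CT45A1 measured 4.84, 6.23 and 4.54 in knockout clones, against 5.04, 4.81 and 4.96 in control clones. Its detection p was 0.149 in knockout 2 and over 0.05 on the other arrays, so it was not tested. In the 3 rows knockout 2 was the highest of the 6 arrays, and CT45A6 was above background on none. Among the tested members, CT45A4 in knockout 2 was the only row at least 2-fold above the control mean in that clone, against 1.88% of all tested genes. The corresponding counts were 0 of 28 in knockout 1 (1.61% of all tested genes) and 1, CSAG3A at 2.05-fold, in knockout 3 (1.65%). No tested member was at least 2-fold below the control mean in any knockout clone, against 0.32% in knockout 1, 0.86% in knockout 2 and 0.426% in knockout 3. Each control set against the mean of the other 2 controls also had 0 of the 28 rows at least 2-fold away. Of all tested genes 0.0761%, 0% and 0.00761% were that much higher, and 0.0152%, 0.107% and 0.00761% that much lower, in control 1, 2 and 3.

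MAGE-A, MAGE-B and MAGE-C proteins bind RING-type ubiquitin ligases and alter their activity or targets. MAGE rows differed little between groups: 8 of 9 tested rows, the pseudogene MAGEB6B among them, were lower in the mean of knockout clones, and 0 passed. Over all tested genes 46.2% were higher and 1.57% passed. MAGEA1, the antigen with which the family was discovered, measured 8.74, 8.83 and 8.96 in knockout clones, against 8.98, 9.16 and 9.09 in control clones. The knockout clones lay below all controls by a gap of 0.01 (difference -0.23, limma adjusted p = 0.308). MAGEA8 measured 8.51, 8.94 and 8.60 in knockout clones, against 8.71, 8.48 and 8.62 in control clones (difference 0.08, limma adjusted p = 0.808), and MAGEB2 measured 8.03, 8.28 and 7.97 in knockout clones, against 8.11, 8.46 and 8.28 in control clones (difference -0.19, limma adjusted p = 0.488). Their intervals, -0.25 to 0.40 for MAGEA8 and -0.51 to 0.13 for MAGEB2, leave out a change of 2-fold.

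Knockout 2 was also the clone that departed in MAGEC1 and MAGEA4. MAGEC1, a large MAGE protein, measured 6.00, 5.32 and 6.11 in knockout clones, against 6.18, 6.21 and 6.23 in control clones (difference -0.40, limma adjusted p = 0.290). The groups did not overlap, but without knockout 2 the difference was -0.16. MAGEA4, chosen after its values were seen, measured 7.71, 6.84 and 7.74 in knockout clones, against 7.67, 7.69 and 7.66 in control clones. Knockout 2 was 1.78-fold below the control mean and the other clones of both groups lay between 7.66 and 7.74, so that the group difference was -0.24 (limma adjusted p = 0.591) and 0.05 without knockout 2. MAGEA12, MAGEA6, MAGEA11 and MAGEB6B differed by -0.04, -0.11, -0.07 and -0.17. MAGEA3 was above background in 2 of 3 knockout clones and 0 of 3 control clones, yet its mean log2 level was 4.86 in knockout clones and 4.97 in control clones, so these detections mark no higher level. MAGEA5 was above background on 1 array of each group MAGEA9 in knockout 1 alone, CTAGE6 in knockout 2 alone and CT47A7 in control 1 alone. MAGEA2, MAGEA2B, MAGEA9B, MAGEA10, MAGEC2, MAGEC3 and 8 MAGEB rows (MAGEB1, MAGEB3, MAGEB4, MAGEB5, MAGEB6, MAGEB10, MAGEB16 and MAGEB18) were above background on no array.

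**Figure D4:**
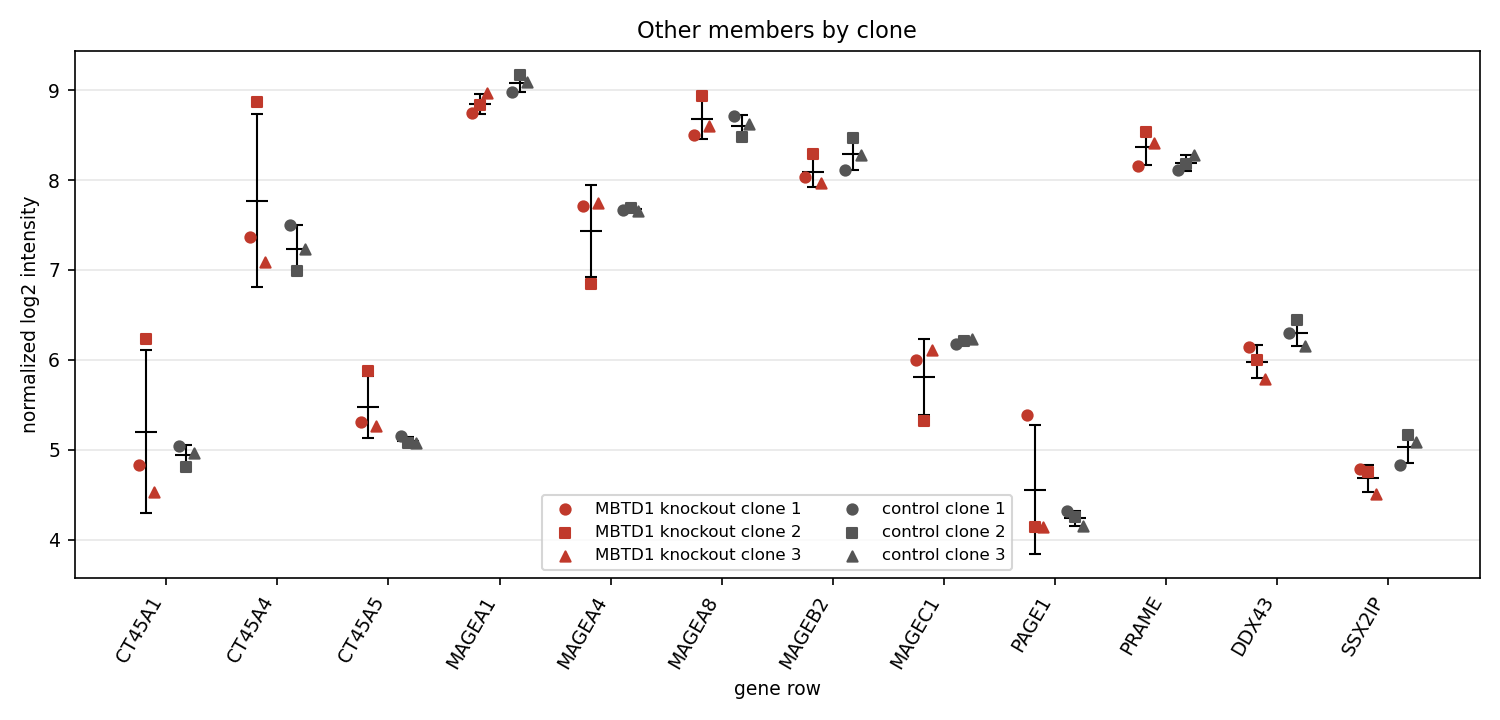
Normalized log2 intensity of 12 further rows in each clone, MBTD1 knockout (red) left of control (grey), with mean and SD (n = 3 each) in black. Knockout clone 2 (squares) is the highest array in the CT45A rows and the lowest in MAGEA4 and MAGEC1, and knockout clone 1 stands alone in PAGE1.

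The remaining members gave no call. PRAME, a substrate receptor of a cullin ubiquitin ligase that also represses retinoic acid signalling, measured 8.15, 8.54 and 8.41 in knockout clones, against 8.11, 8.18 and 8.28 in control clones (difference 0.18, limma adjusted p = 0.501). DDX43, an RNA helicase, measured 6.15, 6.00 and 5.78 in knockout clones, against 6.30, 6.44 and 6.16 in control clones, with the groups just apart (difference -0.32, limma adjusted p = 0.232). SSX2IP measured 4.78, 4.75 and 4.51 in knockout clones, against 4.84, 5.16 and 5.08 in control clones (difference -0.35, limma adjusted p = 0.196). All 10 SSX rows were above background on no array. SSX proteins are transcriptional repressors, and the family is known from the fusion gene of synovial sarcoma. SSX6, SSX8 and SSX9 are now named as pseudogenes (SSX6P, SSX8P and SSX9P). Of the 4 CTAGE rows only CTAGE6 is among those above background on any array. Of the CTAG rows, CTAG2 was above background in 1 of 3 knockout clones and 2 of 3 control clones (difference -0.07, limma adjusted p = 0.833), CTAG1B, which encodes the antigen NY-ESO-1, in control 2 alone and CTAG1A on none. CT47A6 was above background in all control clones and no knockout clone. Its groups overlapped, at means of 4.34 in knockout clones and 4.42 in control clones (difference -0.08, limma adjusted p = 0.714). Of the 39 rows above background on no array, all but CT45A1 lay between 4.08 and 4.60 on every array.

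GAGE rows, the closest relatives of XAGE and PAGE, were spread far more widely among knockout clones. GAGE2B measured 11.16, 4.67 and 6.52 in knockout clones, against 8.86, 7.89 and 8.43 in control clones. Tested GAGE rows numbered 13, of which 0 passed, against 1.57% of all tested genes. Knockout 2 was the lowest of the 6 arrays in GAGE2B, and knockout 1, the one clone with PAGE1 above background, was the highest. The XAGE1 and PAGE2 rows, by contrast, spanned at most 0.21 and 0.31 among knockout clones.

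Genes that work with or on the members were described by lists. Of 32 tested cancer-testis genes outside these families 0 passed, against 1.57% of all tested genes. Their median difference was -0.03 (15 positive, 17 negative), where 46.2% of all tested genes were positive. Those of smallest p were CXorf61, the antigen KK-LC-1, at 0.55 (limma adjusted p = 0.0987) and PBK, a mitotic kinase, at -0.68 (limma adjusted p = 0.124). Of 10 type II MAGE genes, which most tissues express, 0 passed, with a median of 0.08, and NDNL2 and MAGEH1 differed by 0.21 and 0.12.

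Among 15 tested ubiquitin ligase partners of MAGE and PRAME proteins 1 passed, where 1.57% of all tested genes did. TCEB2, which encodes elongin B of the PRAME ligase, measured 9.70, 9.99 and 9.88 in knockout clones, against 8.79, 7.68 and 8.33 in control clones. It rose 3.01-fold (limma adjusted p = 0.0220) without overlap, and its controls too were spread, control 1 above control 2 by 1.11. RBX1, the RING subunit, differed by 0.76 (limma adjusted p = 0.0695). Of 8 tested genes of retinoic acid signalling 1 passed: RXRA, a retinoid receptor, rose 2.13-fold, at 8.10, 8.20 and 8.18 in knockout clones and 7.42, 6.75 and 7.04 in control clones (limma adjusted p = 0.0217). Of 11 transcription factors known to act at MAGE promoters 1 passed: ELK1, an ETS factor, rose 1.71-fold, at 7.99, 8.03 and 8.02 in knockout clones and 7.42, 7.10 and 7.19 in control clones (limma adjusted p = 0.0220), while SP3 differed by -0.35 (limma adjusted p = 0.272). Each of these 3 calls was lost with normexp on all rows, without a filter, with the replicate block, with the short-gene score, and without control 3, knockout 2 or knockout 3. Without control 3 and in 2 of the other settings, normexp on all rows and the short-gene score, no gene of the whole table passed (limma; 1919, 2260 and 554 genes at an unadjusted p under 0.05). The calls of TCEB2 and RXRA were also lost without background correction, at an offset of 50 and with the deposited log2 table, and those of RXRA and ELK1 without control 2.

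Genes known for silencing by DNA or histone methylation gave no call, where 1.57% of all tested genes passed. In lists of 18 and 17 tested genes, 0 calls lie near that share. Of 18 tested genes of DNA methylation 0 passed, with 16 negative differences and 2 positive, a median of -0.12. The share of positive differences over all tested genes was 46.2%. MAT2A, which makes the methyl donor, differed by -0.49 (limma adjusted p = 0.0987), ZBTB4, a reader of methylated DNA, by 0.39 (limma adjusted p = 0.116). DNMT1, the maintenance methyltransferase, named after its values were seen, measured 10.38, 10.94 and 10.57 in knockout clones, against 10.86, 11.34 and 10.98 in control clones (difference -0.43, limma adjusted p = 0.222), and control 1 lay below control 2 by 0.48. Of 17 tested genes of histone H3 lysine 9 methylation and related silencing 0 passed, with a median of 0.01. SETDB1, a histone methyltransferase, differed by 0.49 (limma adjusted p = 0.0759) and PPHLN1, of the HUSH complex, by -0.36 (limma adjusted p = 0.136). Of the other marker lists, 0 passed among 3 tested epithelial genes and 2 tested blood and endothelial genes, and 0 of 6 melanocyte markers were above background on any array.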

How the data were processed

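The members and the gene lists were chosen with earlier results of these data known. The authors deposited a table of mean bead intensity per gene row on a linear scale, neither background-corrected nor normalized, with a detection p-value, a bead standard error of the signal and a bead number, per the file headers. Fractional bead numbers show rows averaged over more than 1 probe. Log2 values in a second deposited table equal a quantile normalization of the log2 intensities to within 4.99e-09. Lumi and limma are named in the submitters' processing notes, with neither role nor version.

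In R 4.3.3 with limma 3.58.1, background was corrected by the normexp model from detection p-values, fitted on the 27408 rows whose detection p is a whole step of 1 in 770 on all arrays. Quantile normalization followed on log2 values taken with an offset of 16. Gene rows at a detection p under 0.05 on at least 3 of 6 arrays were fitted with lmFit and eBayes, knockout minus control, 2-sided, with Benjamini-Hochberg adjustment over 13145 genes and a threshold of 0.05. For a row above background on no array of 1 group but on some array of the other, a bound was computed. It was taken against the higher of the row's own signal and the lowest signal above background, and is printed for PAGE1. The fit was tested on simulated data. An exact permutation test of 3 against 3 arrays cannot go below 0.1 and was not used. Values on all arrays are given for tested members that passed, did not overlap, or ranged over at least 1 on the log2 scale, and for the 10 of highest mean. From each list, genes that passed and the 2 of smallest p are named. A gene that this rule names is not reported here. Symbols were matched to RefSeq, which names 73 of the 75 rows, and promoters were read from RefSeq windows of GRCh38.p14 with Python 3.11.15 and biopython 1.88. Alternatives varied the background correction, offset, scaling, filter, variance model, replicate block and arrays. 0 other per-sample columns were present.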

Additional observations from a re-analysis of the deposited data

How the results depend on the processing

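Of 19 alternatives, 13 called 0 members and none called a member lower. Calls differed elsewhere: 6 members passed with common-median scaling (CSAG2, PAGE2, XAGE1, XAGE1A, XAGE1B, XAGE1C), 3 each with cyclic loess, with detection on all 6 arrays and with a detection p under 0.01 (PAGE2, XAGE1B, XAGE1C), 2 with the trend and robust option (PAGE2, XAGE1C), and 0 to 5 on leaving out single clones, 5 without control 1. Over all genes, 207 calls became 0 with normexp on all rows (2260 at an unadjusted p under 0.05), 64 without background correction and with the deposited log2 table, 61 at an offset of 50, 585 with a common median, 4 without a filter and 0 with the short-gene covariate added after the data were seen (554 at an unadjusted p under 0.05). Leaving out single clones gave 0 (without control 3, 1919 at an unadjusted p under 0.05) to 578 (without control 1), all by limma, with 50 without control 2, 225 without knockout 1, 50 without knockout 2 and 51 without knockout 3. The median over tested members, 0.02, was 0.116 with a detection p under 0.01 on at least 3 arrays, and -0.01 to 0.07 on leaving out single clones. Members at least 2-fold from the control mean in knockout 1 numbered 4 with normexp on all rows, 6 with a common median, 2 with cyclic loess, and 1 without a filter or with detection on at least 1 array, in place of 0. In knockout 2 they numbered 3, 2 and 2 with normexp on all rows, a common median and no filter, in place of 1. In knockout 3 they numbered 4 and 2 with normexp on all rows and a common median, and 0 without background correction, with the deposited table and at an offset of 50, in place of 1. The cause of these shifts was not tested. With a detection p under 0.01, 29 in place of 36 members were above background on at least 1 array. A replicate block on the clone numbers called 122 genes and 0 members. Same-numbered clones correlated at 0.0656, 0.0153 and 0.0187 in their deviations, and differently numbered ones at -0.0713 to 0.0620. These small values cannot settle whether the numbers mark a pairing. For the related lists, 42 of 247 counts and 26 of 228 medians moved. Dim rows limit the range: 39 of 75 members were above background on no array, so a lower level there could not be seen, and 3 arrays a group limit the rest.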
